A study of Mus musculus with 45 samples.

Results

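The progestin and adiponectin receptors described here were 9 genes, Paqr3, Paqr4, Paqr5, Paqr7, Paqr8, Adipor1, Adipor2, Pgrmc1 and Pgrmc2, taken by name from the 47729 genes in the count and TPM tables of sorted small intestinal tuft cells. Paqr7 was selected on its diet difference in these same libraries, so its diet values are given as a description with no test, and its relatives are set beside it. Of the 9 genes, 8 were among the 14020 genes tested, those that had over 5 reads in 6 libraries or more of 45, and Paqr8 was not. The mice were male C57BL/6J housed at thermoneutrality and fed either a reference fat diet (RFD, 10% fat) or a high fat diet (HFD, 60% fat). Libraries titled STF came from 11 RFD and 11 HFD mice and were taken as the 9-week set, and libraries titled LTF came from 11 RFD and 12 HFD mice and were taken as the 22-week set after the study's description. The deposited labels give 9 weeks for every library, and feeding time, age and library set cannot be told apart. Each library came from sorted cells of 1 mouse. The study gives the gate as live EpCAM+CD45+ Siglec-F+, meant to enrich tuft cells, but also states that cells with CD45 were left out.

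Receptors of the PAQR family thread through the membrane 7 times and fall into branches with different ligands. Adipor1 and Adipor2 bind adiponectin, the hormone of fat cells, and are known for signalling to AMP-activated protein kinase and to the lipid-responsive nuclear receptor PPARα. Paqr7, Paqr8 and Paqr5 (mPRα, mPRβ and mPRγ), with Paqr6 and Paqr9, are membrane progestin receptors, which bind progestins at membranes and act apart from the nuclear progesterone receptor. Paqr3 and Paqr4 are Golgi proteins, Paqr3 being known for anchoring Raf kinase and the sterol sensor Scap there. Pgrmc1 and Pgrmc2 are not PAQR proteins by sequence. They are small haem-binding membrane proteins named for progesterone binding that also assist cytochrome P450 enzymes.

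Paqr7 lies on chromosome 4 (GRCm38, chr4:134496697-134510235, plus strand), and RefSeq places 2 transcription starts near its 5′ end. Upstream sequence is shown for Paqr7 and for Adipor2, the relative with the smallest unadjusted p for diet at 22 weeks. Letters are in lower case with each CG in capitals, and the sequence is from RefSeq (GRCm38.p6). The Paqr7 stretch ends where the first GENCODE exon of the gene begins. The Adipor2 stretch ends at a RefSeq transcription start that lies inside the gene as GENCODE annotates it (chr6:119353150-119417704), and no GENCODE exon overlaps the stretch.
Paqr7, chr4:134496511-134496696, plus strand: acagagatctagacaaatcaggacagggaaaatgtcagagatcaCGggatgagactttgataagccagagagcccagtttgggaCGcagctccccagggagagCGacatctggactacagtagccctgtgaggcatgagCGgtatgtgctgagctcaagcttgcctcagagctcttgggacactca
Adipor2, chr6:119388735-119388984, minus strand: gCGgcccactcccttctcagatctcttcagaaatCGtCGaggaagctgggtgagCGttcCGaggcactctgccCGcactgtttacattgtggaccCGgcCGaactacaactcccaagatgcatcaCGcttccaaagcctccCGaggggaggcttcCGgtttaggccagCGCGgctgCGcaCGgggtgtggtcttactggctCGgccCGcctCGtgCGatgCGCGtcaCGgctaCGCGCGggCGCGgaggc
The Paqr7 stretch of 186 bases held 4 CG pairs, and the Adipor2 stretch of 250 bases held 27. Over the full windows from 250 bases before to 50 bases after a start, the first Paqr7 window had a GC content of 52.3% and 7 CG pairs, close to the medians of 52.7% and 7 over 32851 windows. Its second window had 67% and 21 CG pairs. All 9 members had at least 1 window, and the other 10 windows ranged from 47.7% GC in the second Paqr8 window to 76.7% in the second Adipor1 window. The site AGGTCA, bound by nuclear receptors such as PPARα with its partner RXR, was searched on both strands. It had 1 match among the 12 windows of the members, in the second Paqr8 window, against 16.3% of all windows with a match, and neither Paqr7 window held it. AGAACA, a site of the progesterone and glucocorticoid receptors, was found in both Paqr8 windows and in that of Pgrmc1, against 19% of all windows, and TATAAA in none of the 12, against 13.6%. These matches describe the letters in these windows.

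Total reads per library ranged from 189340 to 4193097 in the RFD group and from 409023 to 3600000 in the HFD group at 9 weeks. At 22 weeks they ranged from 829184 to 3476758 and from 661598 to 4690213. The tuft cell markers were detected in every group: Dclk1, a kinase that marks tuft cells, had medians of 1117 (RFD) and 662 (HFD) CPM at 9 weeks, CPM being reads scaled to a fixed library total with TMM factors within a set, and of 1790 and 1612 at 22 weeks. Summed over 28 tuft genes, the medians were 43310, 18150, 52290 and 41170 CPM in the same order. Of the 28, 0 passed the edgeR test for diet at either time, or by DESeq2, with 10 and 6 at an unadjusted p of 0.05. Over all 14020 tested genes edgeR called 466 and 111, DESeq2 1220 and 293, and 2523 and 1444 had an unadjusted edgeR p under 0.05. An enterocyte list of 22 genes, from cells outside the intended gate, had summed medians of 13330, 10600, 22610 and 23970. The library of RFD mouse 3 at 22 weeks stood apart (median Spearman rho of 0.531 with its group), as did that of RFD mouse 40 at 9 weeks (0.488), the shallowest. Diet differences are also given without RFD mouse 3 for Pgrmc1, Pgrmc2, Adipor2 and Paqr4, where it alone was the lowest or highest RFD library at 22 weeks. Bulk RNA cannot tell fewer cells expressing a gene from less of its RNA in each cell.

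Paqr7 (mPRα) was higher in value in HFD than in RFD in both sets, and the groups were further apart at 22 weeks. At 22 weeks the 11 RFD libraries had a lowest value of 0, a median of 2.47 and a highest of 8.67 CPM. The 12 HFD libraries had a lowest value of 1.87, a median of 33.2 and a highest of 72.5 CPM, and 10 of the 12 lay above every RFD library. In this contrast, the one Paqr7 was selected on, 0.792% of all tested genes were called. The 2 that overlapped with RFD were HFD mouse 50 at 1.87 CPM, with 5 reads, and HFD mouse 65 at 8.17 CPM, with 6 reads. In reads, the RFD libraries held 0 to 11 and the HFD libraries 5 to 347. The means were 2.43 ± 2.45 CPM (SD, n = 11) in RFD and 36.5 ± 22 CPM (SD, n = 12) in HFD. The fitted log2 difference was 3.89 with a standard error of 0.53, or 14.9-fold, and its 95% interval ran from 2.81 to 4.98. On the log2(TPM + 1) scale the difference was 2.70, since the added 1 weighs on the low RFD values.

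At 9 weeks the Paqr7 groups overlapped over most of their range. The 11 RFD libraries had a lowest value of 0, a median of 2.01 and a highest of 16.5 CPM, and the 11 HFD libraries a lowest of 0, a median of 8.51 and a highest of 29.1 CPM. HFD exceeded the RFD median in 9 of 11 libraries and every RFD library in 2. The fitted log2 difference was 1.52 with a standard error of 0.84, and its 95% interval ran from −0.19 to 3.24. No Paqr7 interval is read as a test, since the gene was selected on its diet difference. In this contrast 466 genes were called, 3.32% of those tested. The highest RFD library, from mouse 21, held 56 reads where the other 10 held 0 to 9. Without it the log2 difference was 2.44 (95% interval 0.65 to 4.22), an alternative chosen after the data were seen. A tuft score was the mean log2 level of the tuft genes minus that of the enterocyte, goblet, Paneth and enteroendocrine genes together. With this score in the fit the log2 difference was 0.96, and with the number series of the mice it was 0.99. At 22 weeks the last pair of fits gave 3.86 and 4.07.

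**Figure D1:**
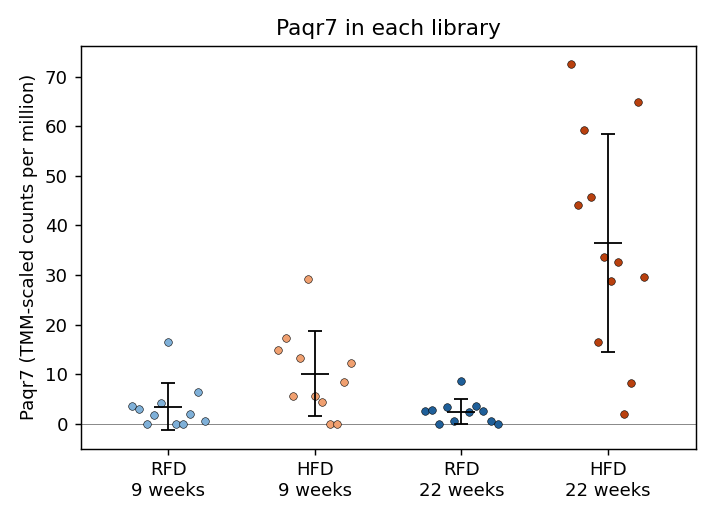
Paqr7 in CPM after TMM scaling within each set, 1 point per library (11, 11, 11 and 12), with the group mean and SD as bars. In the HFD group at 22 weeks 10 of 12 libraries lie above all RFD libraries of that set, while at 9 weeks the groups overlap.

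The mice carry numbers in 3 series in the titles (1 to 8, multiples of 10, and others from 21 to 64), which the labels do not call batches. RFD mouse 84 at 9 weeks and HFD mouse 65 at 22 weeks, the latter 1 of the 2 HFD libraries that overlapped with RFD, belong to none of the series and were left out of the series values and fits. Within these series, Paqr7 was higher in HFD at 22 weeks in all 3, with mean log2(CPM + 1) differences of 4.33, 3.75 and 2.56. At 9 weeks it was higher in 2 of 3, with differences of 2.29 and 1.42, and lower in the last, where the difference was −0.62. In that last series the mean was 4.62 CPM over 4 RFD mice, mouse 21 among them, and 1.46 CPM over 3 HFD mice, of which 2 had 0 reads. Each value rests on 3 or 4 mice a diet.

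The other membrane progestin receptors were scarce in every group. Paqr5 (mPRγ), on chromosome 9, had medians of 2.91 CPM in RFD and 4.26 in HFD at 9 weeks and of 1.53 and 2.36 at 22 weeks. Its lowest value was 0 in all 4 groups and its highest was 9.89 CPM. The log2 difference was 0.43 ± 0.94 (SE) at 9 weeks (edgeR adjusted p = 0.857) and 0.75 ± 0.79 at 22 weeks (adjusted p = 0.805). With 95% intervals of −1.49 to 2.35 and −0.87 to 2.37, changes of several fold in either set lay within its error. Paqr8 (mPRβ), on chromosome 1, never exceeded 14 reads and had none in 14 of 45 libraries. Its group medians lay between 0 and 1.6 CPM and no fit was made. Of the 2 remaining receptors of this branch, Paqr6 (mPRδ) had no read in 35 of 45 libraries and at most 7. Paqr9 (mPRε) had at most 29 reads, with medians of 0.58 CPM in RFD and 2.27 in HFD at 9 weeks and of 6.41 and 2.33 at 22 weeks, and with log2 differences of 1.45 ± 1.07 (SE) at 9 weeks (adjusted p = 0.49) and −0.20 ± 0.75 at 22 weeks (adjusted p = 0.956).

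The makeup of the branch in TPM, which is per transcript length, followed from these levels. At 22 weeks the summed TPM of the 5 membrane progestin receptors had a median of 3.73 in RFD (0.37 to 6) and of 15.3 in HFD (1.8 to 30.1). Paqr7 made up a median of 22.5% of that sum in RFD (0 to 54.2%) and of 84.3% in HFD (49.2 to 97.8%). At 9 weeks its median share was 32.8% over the 9 RFD libraries with any such read and 40.3% over 10 HFD libraries, and both ranges started at 0.

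Pgrmc1 was the most abundant member and did not pass the diet test. At 9 weeks its RFD libraries ranged from 76.4 to 178 CPM with a median of 118, and its HFD libraries from 104 to 194 with a median of 154. HFD exceeded the RFD median in 9 of 11 libraries. The log2 difference was 0.33 ± 0.18 (SE; edgeR adjusted p = 0.354; 95% interval −0.05 to 0.70). At 22 weeks the medians were 239 and 242 CPM, the log2 difference was 0.19 ± 0.20 (adjusted p = 0.8), and 6 of 12 HFD libraries exceeded the RFD median. The lowest RFD value at 22 weeks, 36.8 CPM, was that of mouse 3, and without it the log2 difference was 0.079 (adjusted p = 0.834). Pgrmc2, its paralog, had medians of 8.02 and 5.63 CPM at 9 weeks and of 10.7 and 9.45 at 22 weeks. Its log2 differences were −0.48 ± 0.46 (adjusted p = 0.617) and −0.58 ± 0.42 (adjusted p = 0.678), and at 9 weeks 9 of 11 HFD libraries were under the RFD median. At 22 weeks the highest RFD value, 62.9 CPM, was again that of mouse 3, and without it the log2 difference was −0.037 (adjusted p = 0.978).

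The adiponectin receptors differed in opposite directions in value at 22 weeks, and neither passed the threshold. Adipor2, the receptor linked to PPARα, ranged from 0 to 43.2 CPM with a median of 31.7 in RFD and from 31.7 to 88.5 with a median of 46.1 in HFD. HFD exceeded the RFD median in 11 of 12 libraries and every RFD library in 8. The log2 difference was 0.71 ± 0.32 (SE), with an unadjusted p of 0.0337 and an adjusted p of 0.451 in the edgeR test. The RFD value of 0 was that of mouse 3, and without this library the log2 difference was 0.58 ± 0.19 (adjusted p = 0.14). At 9 weeks the Adipor2 medians were 43.5 CPM in RFD and 42.9 in HFD, and the log2 difference was 0.11 ± 0.21 (adjusted p = 0.84). Adipor1, the receptor linked to AMP-activated protein kinase, had medians of 66.5 and 73.3 CPM at 9 weeks and of 71.7 and 56.4 at 22 weeks. At 22 weeks 10 of 12 HFD libraries were under the RFD median and 5 were under every RFD library, while 1, at 99 CPM, was above them all. Its log2 differences were −0.12 ± 0.26 (adjusted p = 0.855) and −0.30 ± 0.19 (adjusted p = 0.613).

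The Golgi members did not pass the test either. Paqr4, a Golgi protein linked to sphingolipid metabolism, had medians of 51.9 and 37.9 CPM at 9 weeks and of 61.8 and 55.6 at 22 weeks. Its log2 differences were −0.15 ± 0.27 (edgeR adjusted p = 0.818) and −0.17 ± 0.20 (adjusted p = 0.824). At 22 weeks the lowest RFD value, 20.7 CPM, was that of mouse 3, and without it the log2 difference was −0.27 (adjusted p = 0.439). Paqr3 had medians of 2.26 and 2.25 CPM at 9 weeks and of 9.16 and 7.01 at 22 weeks. Its 9-week log2 difference of −1.06 ± 0.97 (adjusted p = 0.597) rested on the shallowest library, RFD mouse 40 at 82.8 CPM, and was 0.36 when libraries under 500000 reads were left out. Paqr3 and Paqr4 each overlap a gene on the opposite strand, Bmp2k and Pkmyt1. The libraries do not mark strand, and the deposited counts were not whole in 16 libraries for Paqr3 and in 23 for Paqr4, so the values of both members are uncertain. The Paqr7 counts were whole in all 45 libraries and no annotated gene overlaps it.

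**Figure D2:**
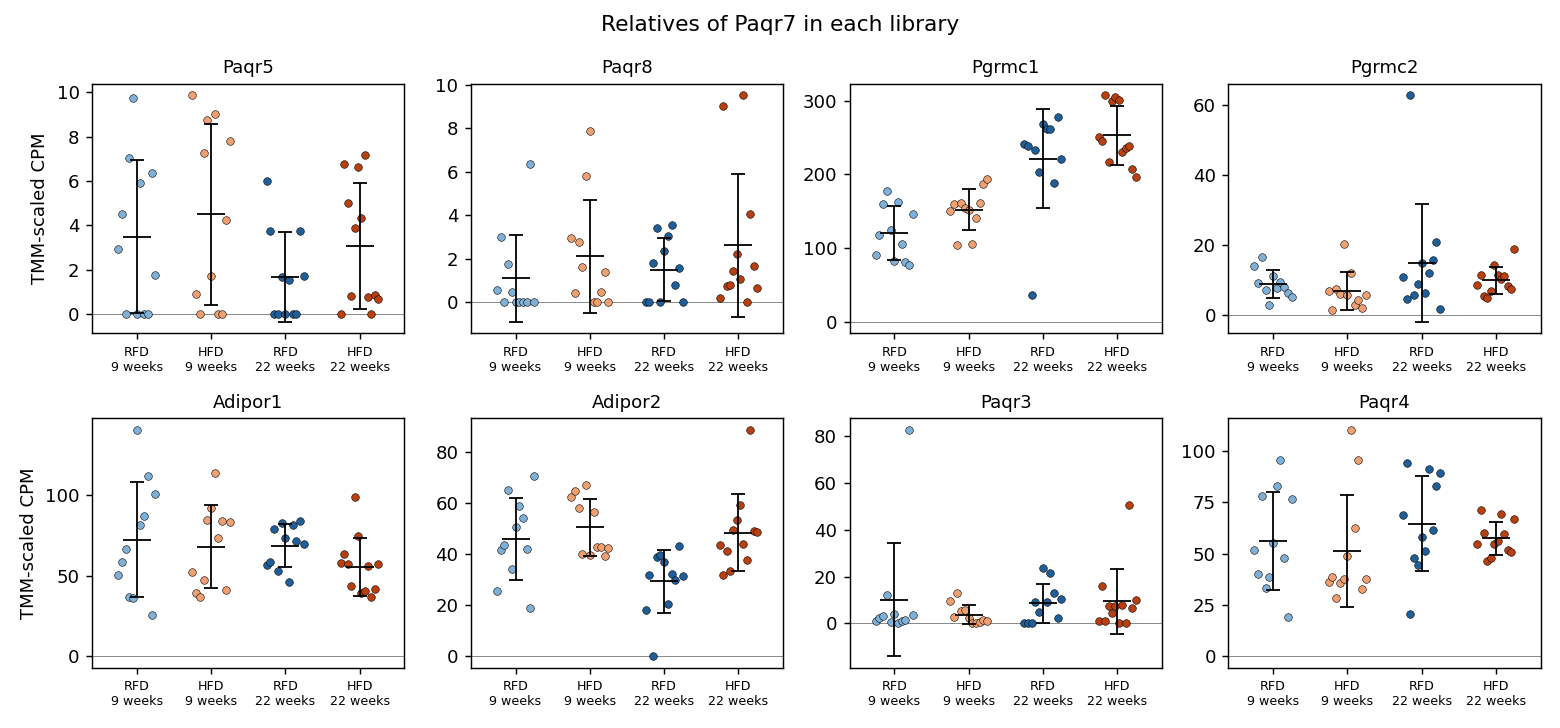
The 8 relatives of Paqr7 in CPM after TMM scaling within each set, 1 point per library with the group mean and SD as bars, each gene on its own linear axis from RFD at 9 weeks to HFD at 22 weeks. RFD and HFD overlap for every gene, and for Adipor2 at 22 weeks 8 of 12 HFD libraries lie above all RFD libraries.

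Counted together, 0 of the 7 relatives tested passed an adjusted p of 0.1 at 9 weeks, where 3.32% of all tested genes did, and 0 of 7 passed at 22 weeks, where 0.792% did. At an unadjusted p of 0.05 the counts were 0 and 1, beside 2523 and 1444 of the 14020 tested genes. DESeq2 called 1220 and 293 of these genes, and none of the 7 relatives was called by it or in any other alternative fit at either time. Their median log2 difference was −0.12 at 9 weeks and 0.08 at 22 weeks, beside medians of −0.05 and −0.03 over all tested genes. The 95% intervals of Pgrmc1, Adipor1 and Paqr4 lay between −0.70 and 0.70 in both sets. Those of Paqr3 and Paqr5, the scarcest of the 7, spanned more than 3 log2 units.

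**Figure D3:**
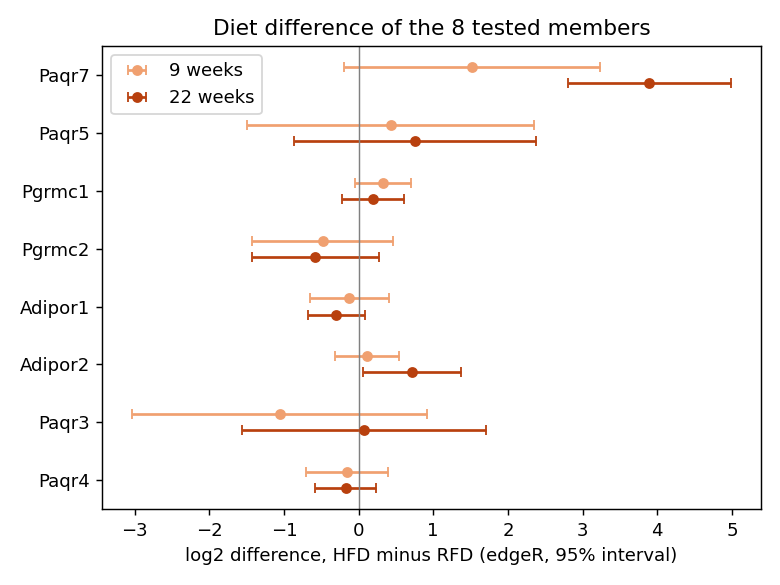
Fitted log2 difference, HFD minus RFD, with its 95% interval for the 8 tested members at 9 weeks (light) and 22 weeks (dark). Paqr7, which was selected on this difference, lies at 1.52 and 3.89, and the intervals of its relatives include 0 except for Adipor2 at 22 weeks (0.06 to 1.37), which did not pass after adjustment.

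Outside the members, the PAQR genes Mmd and Mmd2 code for Golgi proteins of the same fold. Mmd rose with HFD at 9 weeks, from 8.31 ± 3.30 to 18.9 ± 9.29 CPM (SD, n = 11 each), a log2 difference of 1.18 ± 0.35 (SE; edgeR adjusted p = 0.0827). It passed in 3 of 10 alternatives, whose adjusted p ran from 0.0165 to 0.618. At 22 weeks its log2 difference was 0.67 ± 0.45 (adjusted p = 0.651). Mmd2 had no read in 21 libraries and log2 differences of 0.02 and −1.36 (adjusted p of 0.995 and 0.672).

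Whether a relative of Paqr7 answered HFD differently in the 2 sets was asked with the diet by set term over all 45 libraries. None of the 7 passed, and 0% of the 14020 genes did. At an unadjusted p of 0.05 there were 451 genes in this edgeR fit, and DESeq2 called 0 after adjustment, while a fit with no filter on low counts called 65 of 35907. Adipor2 had the smallest p among the relatives, with a difference of log2 differences of 0.67 ± 0.38 (SE; unadjusted p = 0.0826). For Paqr7 the value was 2.46 ± 0.95, given without a test, and without RFD mouse 21 of the 9-week set it was 1.46.

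**Figure D4:**
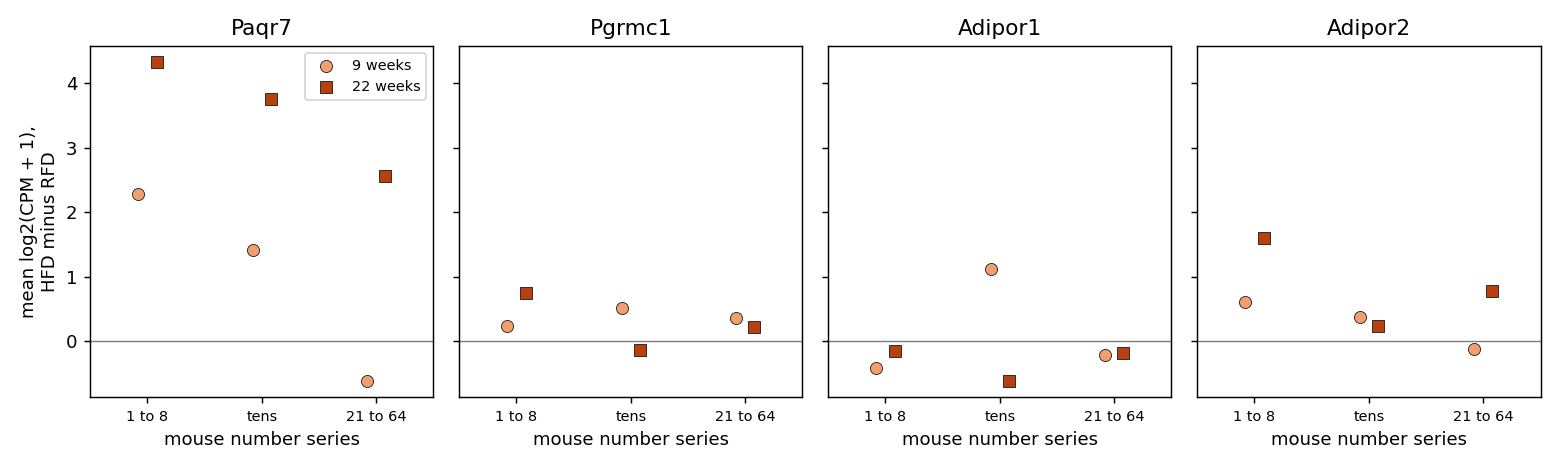
Mean log2(CPM + 1) in HFD minus RFD within each of the 3 mouse number series, for Paqr7, Pgrmc1, Adipor1 and Adipor2 at 9 weeks (circles) and 22 weeks (squares), 3 or 4 mice a diet at each point. Paqr7 lies above 0 in 5 of 6 and at −0.62 in the last series at 9 weeks.

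The libraries titled LTF and STF were also compared directly, averaged over the diets, a contrast that did not enter the choice of the members. Pgrmc1 was higher at 22 weeks and the adiponectin receptors were lower. With all 45 libraries scaled together, Pgrmc1 ranged from 89.7 to 199 CPM with a median of 158 over 22 libraries at 9 weeks and from 35.9 to 288 with a median of 226 over 23 libraries at 22 weeks. Its log2 difference was 0.58 ± 0.13 (SE; edgeR adjusted p = 0.00206). Adipor2 fell from a median of 47 to 36.5 CPM, with a log2 difference of −0.58 ± 0.19 (adjusted p = 0.0453). Adipor1 fell from 74.7 to 53.8 CPM, with a log2 difference of −0.42 ± 0.16 (adjusted p = 0.0955). These were 3 of the 7 relatives, where 11.3% of all tested genes were called. Within the 3 number series of either diet, Pgrmc1 was higher at 22 weeks in 6 of 6 comparisons, Adipor2 lower in 6 of 6 and Adipor1 lower in 4 of 6.

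The remaining members did not pass in this contrast. Paqr7 had medians of 4.62 CPM at 9 weeks and 8 at 22 weeks and a log2 difference of 0.53 ± 0.49 (adjusted p = 0.583), and without RFD mouse 21 of the 9-week set it was 1.03 (adjusted p = 0.185). The Adipor1 call was lost without RFD mouse 21 of the 9-week set (adjusted p = 0.165), with the number series in the fit (0.219) and with no filter on low counts (0.261). With no filter the Adipor2 call was lost too (adjusted p = 0.117). Of 22 enterocyte markers 16 were called higher at 22 weeks and 0 lower, with a median log2 difference of 0.99. Of the tuft markers 4 of 28 were called higher, and of the enteroendocrine, stem or progenitor and Paneth markers 7 of 17, 4 of 10 and 2 of 12 were called lower, with median log2 differences of −1.93, −1.02 and −1.77. Of the T cell markers 1 of 8 was called lower. Pgrmc1 followed the mean enterocyte marker level with a Spearman rho of 0.634 over the 45 libraries. This rho used CPM scaled within each set, so the sets pooled in it were not scaled together. The part of any of these cells in the differences of Pgrmc1, Adipor1 and Adipor2 was not tested.

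Per transcript length, Pgrmc1, Paqr4, Adipor1 and Adipor2 kept their order of median levels in all 4 groups, and Paqr7 changed its place. Over the 45 libraries the median was 96.9 TPM for Pgrmc1, 20.6 for Paqr4, 17 for Adipor1, 9.37 for Adipor2, 2.74 for Pgrmc2, 1.73 for Paqr7, 1.37 for Paqr3, 0.78 for Paqr5 and 0.17 for Paqr8. Pgrmc1 exceeded Paqr4 in 45 of 45 libraries, Adipor1 exceeded Adipor2 in 40, and Adipor2 exceeded Pgrmc2 in 43. Paqr4 exceeded Adipor1 in 31, and the neighbours from Pgrmc2 down to Paqr8 exceeded one another in 25 to 29 of 45, so their order was not set beyond the spread between libraries. Paqr7 ranked 8 of 9 by median TPM in RFD at 9 weeks, 5 in HFD at 9 weeks and 7 in RFD at 22 weeks. In HFD at 22 weeks it ranked 4, at 12.7 TPM beside 12.3 for Adipor2 and 14.5 for Adipor1. There its TPM exceeded that of Adipor2 in 6 of 12 libraries and that of Adipor1 in 5, against 0 of 33 libraries in the other groups for either.

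**Figure D5:**
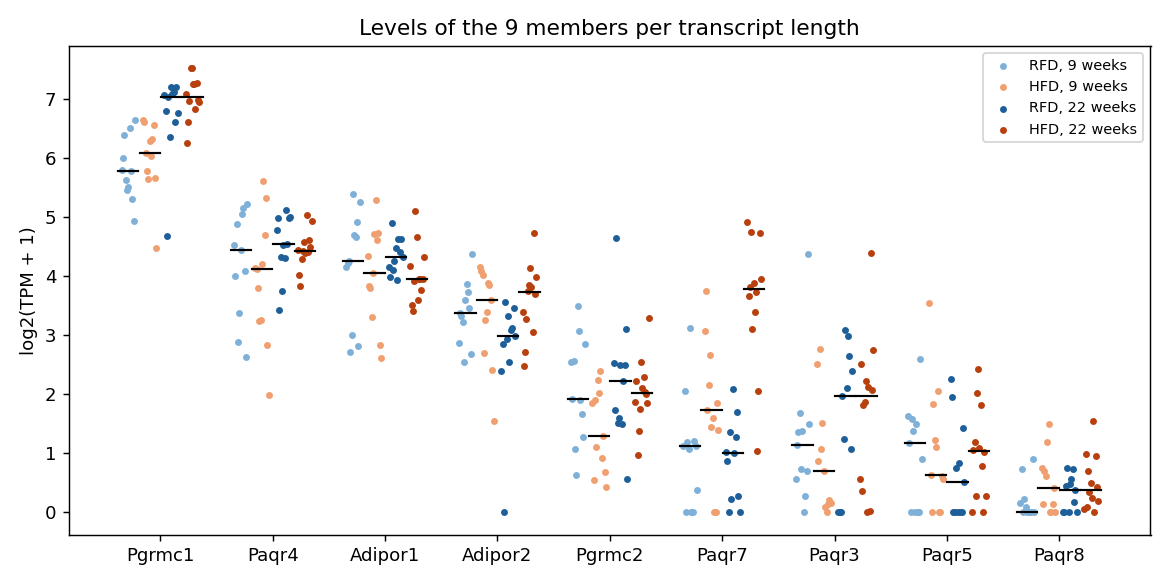
Level of each of the 9 members as log2(TPM + 1), ordered by the median over 45 libraries, with 1 point per library and a bar at each group median. Paqr7 sits among Pgrmc2, Paqr3 and Paqr5 in 3 groups and beside the adiponectin receptors in the HFD group at 22 weeks.

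The genes most like Paqr7 across libraries were ranked by Spearman rho on log2(CPM + 1) over the 45 libraries, where the points share diet, set and depth. The 6 highest were Tmem135 (rho 0.827), the aquaporin Aqp11 (0.768), the pantothenate kinase Pank3 (0.764), the annexin Anxa13 (0.76), the isocitrate dehydrogenase Idh1 (0.758) and the aromatic amino acid decarboxylase Ddc (0.746). Within the 23 HFD libraries alone the values for these genes were 0.845, 0.828, 0.743, 0.716, 0.635 and 0.519. Within the 22 RFD libraries, where Paqr7 reads were few, they ran from 0.174 for Aqp11 to 0.584 for Tmem135. The 2 lowest were the pyruvate kinase Pkm (−0.705 over all, −0.131 within HFD) and the chromatin protein Hmgn3 (−0.665 and −0.357). Among the relatives the rho with Paqr7 over 45 libraries ran from −0.377 for Adipor1 to 0.303 for Pgrmc1, inside the central range of all tested genes (5th to 95th percentile −0.42 to 0.446).

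Markers of other cells were set beside the Paqr7 values. At 22 weeks the mean enterocyte marker level on the log2 scale was 8.54 ± 0.69 (SD, n = 11) in RFD and 8.53 ± 0.51 (SD, n = 12) in HFD, and 2 of 22 enterocyte genes were called higher and 2 lower. At an unadjusted p of 0.05 there were 12 of these 22, and DESeq2 called 9. The tuft level was 8.94 ± 0.94 in RFD and 8.49 ± 1.10 in HFD. With the tuft score, not this level, in the fit the Paqr7 difference was 3.86. Enteroendocrine markers were lower in HFD, with 6 of 17 called, and their summed level ranged from 132 to 1436 CPM in RFD and from 121 to 662 in HFD. Summed Paneth markers ranged from 80.9 to 47340 CPM in RFD and from 30.3 to 157800 in HFD, and 0 of 12 were called by edgeR or DESeq2, with 1 at an unadjusted p of 0.05. Of the goblet, T cell, M cell and stem or progenitor lists (11, 8, 5 and 10 genes tested) 0 were called at 22 weeks by either tool, with 0, 2, 0 and 1 at an unadjusted p of 0.05. At 9 weeks 3 of 10 stem or progenitor genes were called higher and 1 of 8 T cell genes lower. Summed Paneth markers there ranged from 61.8 to 121500 CPM in RFD (median 3181) and from 118 to 683700 in HFD (median 28770). Of the 12 Paneth genes 0 were called by edgeR and 1 by DESeq2. Summed tuft markers ranged from 11390 to 69580 CPM in RFD and from 2600 to 63990 in HFD. The median log2 differences of the lists at 9 weeks ran from −1.44 (T cell) to 2.415 (Paneth), with −0.946 for tuft and 0.813 for goblet. Of the 22 enterocyte genes 2 were called higher and 3 lower at 9 weeks, with 12 at an unadjusted p of 0.05 and 10 called by DESeq2. Over all tested genes 3.32% were called by edgeR at 9 weeks and 0.792% at 22 weeks. At an unadjusted edgeR p of 0.05 there were 2523 and 1444 of 14020 genes, and DESeq2 called 1220 and 293. Within the 12 HFD libraries at 22 weeks the rho of Paqr7 was −0.30 with the tuft level, −0.05 with the enterocyte level and 0.35 with the Paneth level. Over all 23 HFD libraries it was 0.669 with the enterocyte level, which was also higher in the 22-week set. These rho values used CPM scaled within each set, so the sets pooled in the last one were not scaled together. The part of these cells in the Paqr7 values was not tested.

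The ligand gene Adipoq had at most 6 reads in a library. Of 29 ligand, adaptor and effector genes listed, 25 were tested, and 0 rose and 1 fell at 9 weeks, while 0 passed at 22 weeks by edgeR, with 3 at an unadjusted p of 0.05 in each set. DESeq2 called 1 and 0. Over all 14020 tested genes 3.32% and 0.792% were called by edgeR. DESeq2 called 1220 and 293 of them, and 2523 and 1444 had an unadjusted edgeR p under 0.05. The median log2 differences of the list were 0.03 and −0.07. Camkk2, a kinase that activates AMP-activated protein kinase, fell from 49 ± 32.1 to 14.2 ± 7.24 CPM (SD, n = 11 each) at 9 weeks, by 1.80 on the log2 scale (edgeR adjusted p = 0.0351), and was under the RFD median in 11 of 11 HFD libraries. It passed in 6 of 10 alternatives and missed with the tuft score in the fit, among others. The next by p, with the log2 difference first in parentheses, were the kinase subunit Prkaa1 (0.93, adjusted p = 0.244) and the ceramidase Acer1 (−0.82, 0.24) at 9 weeks. At 22 weeks they were the subunit Prkab1 (−0.58, 0.294), Ppara (1.16, 0.436) and the upstream kinase Stk11 (−0.87, 0.439).

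Of 31 genes of progestin binding, steroid conversion and cholesterol supply, all were tested, and 2 rose and 0 fell at each time, beside 3.32% and 0.792% called over all tested genes. At an unadjusted edgeR p of 0.05 there were 8 and 7, beside 2523 and 1444 of all 14020. DESeq2 called 3 and 2, beside 1220 and 293. The list medians were −0.05 and 0.04, with 13 genes higher and 18 lower in value at 9 weeks and 16 and 15 at 22 weeks. Akr1c19, an aldo-keto reductase of a family that converts hydroxysteroids, rose from 39.7 ± 25.8 to 112 ± 69 CPM at 9 weeks (log2 difference 1.48, edgeR adjusted p = 0.0667). At 22 weeks it rose from 46.8 ± 26 to 172 ± 111 CPM (1.87, adjusted p = 0.0145). Akr1c13, of the same family, rose by 0.91 at 22 weeks (adjusted p = 0.0513). Reads of these related genes may be shared between them, which was not tested. Tmem97, a sterol-binding protein that forms a complex with Pgrmc1, rose by 1.03 at 9 weeks (adjusted p = 0.0847), from 46.8 ± 32.5 to 96.3 ± 31.2 CPM, and was above the RFD median in 11 of 11 HFD libraries. The 22-week calls held in 7 of 9 alternatives for Akr1c19 and in 8 of 9 for Akr1c13, and the 9-week calls in 3 of 10 for Akr1c19 and 4 of 10 for Tmem97. Next by p were the cholesterol carrier Stard3 at 9 weeks (−0.64, adjusted p = 0.122) and the P450 reductase Por at 22 weeks (0.65, adjusted p = 0.265). The nuclear receptor gene Pgr had at most 15 reads in a library.

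Of 22 genes listed as partners or pathway neighbours of Paqr3 in Raf signalling, sterol sensing and ceramide metabolism, 21 were tested. At either time 0 passed by edgeR or DESeq2, with 2 and 1 at an unadjusted p of 0.05. Over all 14020 tested genes edgeR called 3.32% and 0.792%, DESeq2 1220 and 293, and 2523 and 1444 had an unadjusted edgeR p under 0.05. The smallest p at 9 weeks (log2 difference and adjusted p in parentheses) belonged to Insig1, which holds the sterol sensor in the endoplasmic reticulum (0.71, adjusted p = 0.2), the sphingomyelinase Smpd3 (0.63, 0.272) and the kinase Map2k1 (0.41, 0.304). At 22 weeks they were the sterol regulator Srebf1 (0.51, 0.436), Insig1 (0.51, 0.496) and the ceramide synthase Cers5 (−0.76, 0.496). The list medians were 0.07 and 0.09.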

How the data were processed

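RNA from sorted cells of 45 mice was amplified with Smart-seq2, which does not mark strand, and sequenced as paired ends. The submitters' processing notes name cutadapt 1.15, STAR 2.6.0, RSEM and GRCm38. The authors deposited estimated counts per gene (RSEM; 8.79% of values above 0 not whole) and TPM (transcript abundance scaled for length and library total by RSEM, as deposited), in 1 table for each set. The tables hold 24 value columns that match no labelled sample and were not used. FPKM tables were not used. The authors' deconvolution weighting and their test were not repeated. Groups came from the sample titles.

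Counts were rounded and joined by gene ID, with symbols for 47224 of 47729 IDs. The 14020 genes with more than 5 reads in at least 6 libraries were fitted in edgeR 4.0.16 (R 4.3.3) with TMM scaling and the robust quasi-likelihood test, within a set for diet and over 45 libraries for the set and interaction terms. Calls were Benjamini-Hochberg adjusted p under 0.1. The members, gene lists and tests were chosen with earlier results of these data known. Named genes were all members and other PAQR genes, listed genes that passed or had the 3 smallest p per list and set, and the 6 highest and 2 lowest correlates of Paqr7. The fit was checked on simulated counts, with large changes placed only in well-counted genes. This check did not cover small changes or scarce genes. Alternatives used DESeq2 1.42.0, its size factors, limma 3.58.1 on log2(TPM + 1) or log2(TPM + 0.1), and no filter. Others added the tuft score as a covariate, the number series or a replicate block, or kept libraries of at least 500000 reads. Samples of 1 group are separate mice. The paper housed several mice per cage and killed the groups by cage over several days. The labels give no cage or day, so the fits treated mice as independent. Precision for scarce genes is limited by counts of a few reads. Sequences are from RefSeq.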

Additional observations from a re-analysis of the deposited data

How the results depend on the processing

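At 9 and 22 weeks and for the interaction, each alternative run called 0 relatives of Paqr7. For the set difference the count of 3 fell to 1 with no filter and to 0 with the replicate block (adjusted p of 0.395 for Pgrmc1, 0.288 for Adipor2 and 0.874 for Adipor1). The block paired mice of the 2 sets that share only a number and a diet (16 pairs, 32 libraries), whose deviations correlated over 0.1 in 2 of 16 pairs (−0.383 to 0.381), with 1 mouse matching its own number best. Within a set RFD and HFD share no number. Over all genes the block moved the set calls from 1580 to 182. Calls for diet over all genes ranged from 5 to 1698 at 9 weeks (466 in the text) and from 13 to 435 at 22 weeks (111).

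Several log2 differences changed sign, and the cause was not tested. At 9 weeks, Paqr3 was 0.36 and Adipor2 −0.006 without libraries under 500000 reads, and Adipor2 was −0.012 in the limma fits with 1 added, with and without a filter, and −0.036 with 0.1 added. With the tuft covariate Paqr4 was 0.12, Paqr5 −0.47 and Adipor1 0.16, with the number series Adipor1 was 0.094, and without RFD mouse 21 it was 0.019. At 22 weeks Paqr3 was −0.18 with the number series and −0.073 without RFD mouse 3. In the interaction, Paqr4 was −0.015 (DESeq2), −0.017 (its size factors), −0.037 (series) and −0.10 (tuft covariate), and from −0.062 to 0.034 with RFD mouse 3 or 21 left out. Pgrmc2 was 0.02 (no filter), 0.044 (series) and 0.14 (500000 reads), from −0.089 to 0.53 with 1 of these mice left out, and Paqr3 was −0.37 (500000 reads). With the replicate block the interaction was −1.24 for Paqr3, −0.68 for Paqr5, 0.042 for Adipor1 and 0.50 for Pgrmc2. For Paqr7 the interaction stayed positive, from 1.22 with the replicate block to 2.80 with the tuft covariate. In the set difference Paqr4 was 0.026 with the series and 0.18 with the replicate block. The Paqr7 diet difference stayed positive in all alternatives, from 0.76 to 2.44 at 9 weeks and from 2.70 to 4.07 at 22 weeks. Paqr7 was selected on its diet difference in these same libraries, so neither this sign nor that of its interaction is a test. No library at 22 weeks was under 500000 reads, so that alternative gave no value there, and limma was run for diet only. Leaving out RFD mouse 3 or 21 was chosen after seeing the data.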
